A study of Danio rerio with 5 samples.

Results

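The genes described here are the nuclear genes of mitochondrial respiration in the kidney of adult zebrafish (Danio rerio). They were taken by symbol: every gene ID whose symbol starts with nduf, sdha, sdhb, sdhc, sdhd, uqcr, cox4, cox5, cox6, cox7, cox8 or atp5, in any letter case, and cycsb, with at least 10 counts in total over the libraries. Of 32520 gene IDs, 109 matched and 107 had enough counts. These held 36 genes of complex I, 5 of complex II, 8 of complex III, 1 cytochrome c gene, 24 of complex IV and 18 of complex V, which are 92 subunit genes in all. Another 12 encode assembly factors of complexes I and II, and 3 encode regulators. NDUFA4 and its relatives carry a complex I name but are counted here with complex IV, where the mammalian NDUFA4 protein belongs. NDUFB4 and NDUFS1 were left out with 7 counts each.

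The respiratory chain lies in the inner mitochondrial membrane. Complex I takes electrons from NADH and complex II takes them from succinate, complex III hands them on to cytochrome c, complex IV gives them to oxygen, and complex V uses the proton gradient so formed to make ATP. Most subunits are encoded in the nucleus and imported, while a few core subunits of complexes I, III, IV and V are encoded in the mitochondrial DNA. Kidney tubule cells are rich in mitochondria, and growing oocytes hold large stores of them. Several complex IV subunits occur as isoforms from separate genes, some of which in mammals are kept to heart and skeletal muscle.

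RNA was sequenced in bulk from dissected whole kidneys, which in fish hold the blood-forming marrow as well as nephrons. There were 2 libraries of fish homozygous for the runx1 allele hg96, a deletion of 8 bp, numbered 5 and 6, and 3 libraries of wild-type (WT) siblings, numbered 1, 2 and 3. All were of strain EK at about 2.5 months, and each library was a pool of 3 kidneys. The mutation is carried by every cell and the transcription factor runx1 acts in blood stem cells, so the comparison asks how adult kidneys that lack it differ from those of siblings.

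Between 27631376 and 33752278 reads per library were assigned to genes, and 105 of the 107 members passed the filter on low counts. Levels are given as CPM, counts per 1000000 of the TMM-scaled library, and the level of 3 counts lay between 0.0876 and 0.113 CPM. The pools differed in tissue beyond the genotype. Summed over 12 ovary marker genes, runx1 null 6 had 5499 CPM and WT 2 had 965 CPM, against 9.64 CPM in runx1 null 5, 36.3 CPM in WT 1 and 14.96 CPM in WT 3. In each of those 3 libraries 1 ovary marker was at 0, figla in runx1 null 5 and WT 3 and zp3 in WT 1. Summed over 12 nephron tubule markers, the level was 3131 and 411 CPM in runx1 null 5 and 6, against 634, 789 and 139 CPM in WT 1, 2 and 3. Summed over 8 erythroid markers, it was 38317 and 5159 CPM in runx1 null 5 and 6, against 33690, 31300 and 56268 CPM in WT 1, 2 and 3. Summed over 10 liver markers, it was 43665 and 34834 CPM in runx1 null 5 and 6, against 26747, 87838 and 1491 CPM in WT 1, 2 and 3. Summed over 10 proliferation markers, it was 221 and 2959 CPM in runx1 null 5 and 6, against 323, 692 and 139 CPM in WT 1, 2 and 3. No tubule, erythroid, liver or proliferation marker was at 0. The erythroid sums overlapped, but 6 of the 8 erythroid markers were below all WT libraries in both null libraries, and 1 was above. Of all tested genes, 14.8% were below and 11.1% above. For markers of 2 other blood lineages, the sum in each null library was below that in every WT library. Summed over 6 thrombocyte markers, the level was 421 and 111 CPM in runx1 null 5 and 6, against 1028, 811 and 1305 CPM in WT 1, 2 and 3, with thpo at 0 in WT 3. Summed over 6 B cell markers, it was 23.0 and 4.96 CPM in runx1 null 5 and 6, against 93.5, 55.7 and 43.3 CPM in WT 1, 2 and 3, with cd79a at 0 in runx1 null 6. The sums over 4 neutrophil markers, 118 and 15.8 CPM in runx1 null 5 and 6, against 678, 274 and 49.3 CPM in WT 1, 2 and 3, overlapped. So did those over 6 interrenal markers, 514 and 159 CPM in runx1 null 5 and 6, against 1663, 17.6 and 1.93 CPM in WT 1, 2 and 3. The part these differences play in the results below was not tested. In such pools, fewer cells of a type and less RNA per cell cannot be told apart.

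As 1 group of 107 genes, the members were somewhat more abundant in the null kidneys. They summed to 7924 and 8905 CPM in runx1 null 5 and 6, against 6684, 7174 and 6190 CPM in WT 1, 2 and 3. Both null libraries were above all WT libraries, at 8414 ± 693 CPM (SD, n = 2) in null kidneys and 6683 ± 492 CPM (SD, n = 3) in WT kidneys. As a share of all counts assigned to genes, which no scaling factor enters, the members took 0.812% and 0.904% in runx1 null 5 and 6, against 0.726%, 0.659% and 0.593% in WT 1, 2 and 3. Such a share also depends on what else fills a library. The 20 genes with the most counts took 11.3% of assigned counts in runx1 null 6, against 23.1% to 26.4% in the other libraries.

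Gene by gene, no member passed the test of genotype. In edgeR's quasi-likelihood test, 0 of 105 tested members had an adjusted p-value below 0.05, where the background over all 20386 tested genes was also 0%. The smallest adjusted p among members was 0.612. At an unadjusted p below 0.05 there was 1 member, cycsb, which is 0.952% of those tested, against 4.37% of all tested genes. The DESeq2 Wald test also called 0 members, where it called 0.427% of all genes with an adjusted p, and 1 member, NDUFAF4, had an unadjusted p below 0.05. The median log2 fold change, null over WT, was 0.25 over the tested members and 0.24 over all tested genes. Over the tested genes with a mean of at least 10 CPM it was 0.12.

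The spread of the members over the libraries had a lower median than that of all tested genes. The ratio of the highest to the lowest of the 5 libraries had a median of 1.88 over the tested members, against 5.35 over all tested genes and 3.72 over the 10078 genes with a mean of at least 10 CPM. A ratio above 2 was found for 47 of 105 members, or 44.8%, against 86.4% of all tested genes. A log2 fold change beyond 1 in either direction was found for 7 members, or 6.67%, against 39.5% of all tested genes. The biological coefficient of variation estimated by edgeR had a median of 0.543 over members and 0.677 over all tested genes. Of the 5 complexes, complex IV had the highest median ratio, 3.12, whereas complexes I, II, III and V had medians between 1.53 and 1.69.

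Both null libraries lay above all WT libraries for 40 of 105 members, or 38.1%, against 11.1% of all tested genes. Both lay below for 7 members, or 6.67%, against 14.8% of all tested genes. The higher members were 13 of complex I, 1 of complex II, 4 of complex III, cycsb, 9 of complex IV, 10 of complex V and 2 assembly factors. The lower ones were ndufa5, NDUFB8, NDUFB10, uqcrc2a, NDUFAF1, NDUFAF3 and SDHAF2. The scaling moved these counts: 32, 29 and 45 members were higher with DESeq2 size factors, upper quartile scaling and total counts, and 11, 4 and 2 were lower. Under the same 3 scalings, 10.48%, 9.12% and 12.01% of all tested genes were higher and 15.9%, 13.9% and 10.95% were lower. Without runx1 null 5 the count of lower members was 33, or 31.4%, against 38.3% of all tested genes. Without WT 2 it was 12, or 11.4%, against 22.2% of all tested genes, and 55 members, or 52.4%, were higher, against 22.9% of all tested genes.

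**Figure D1:**
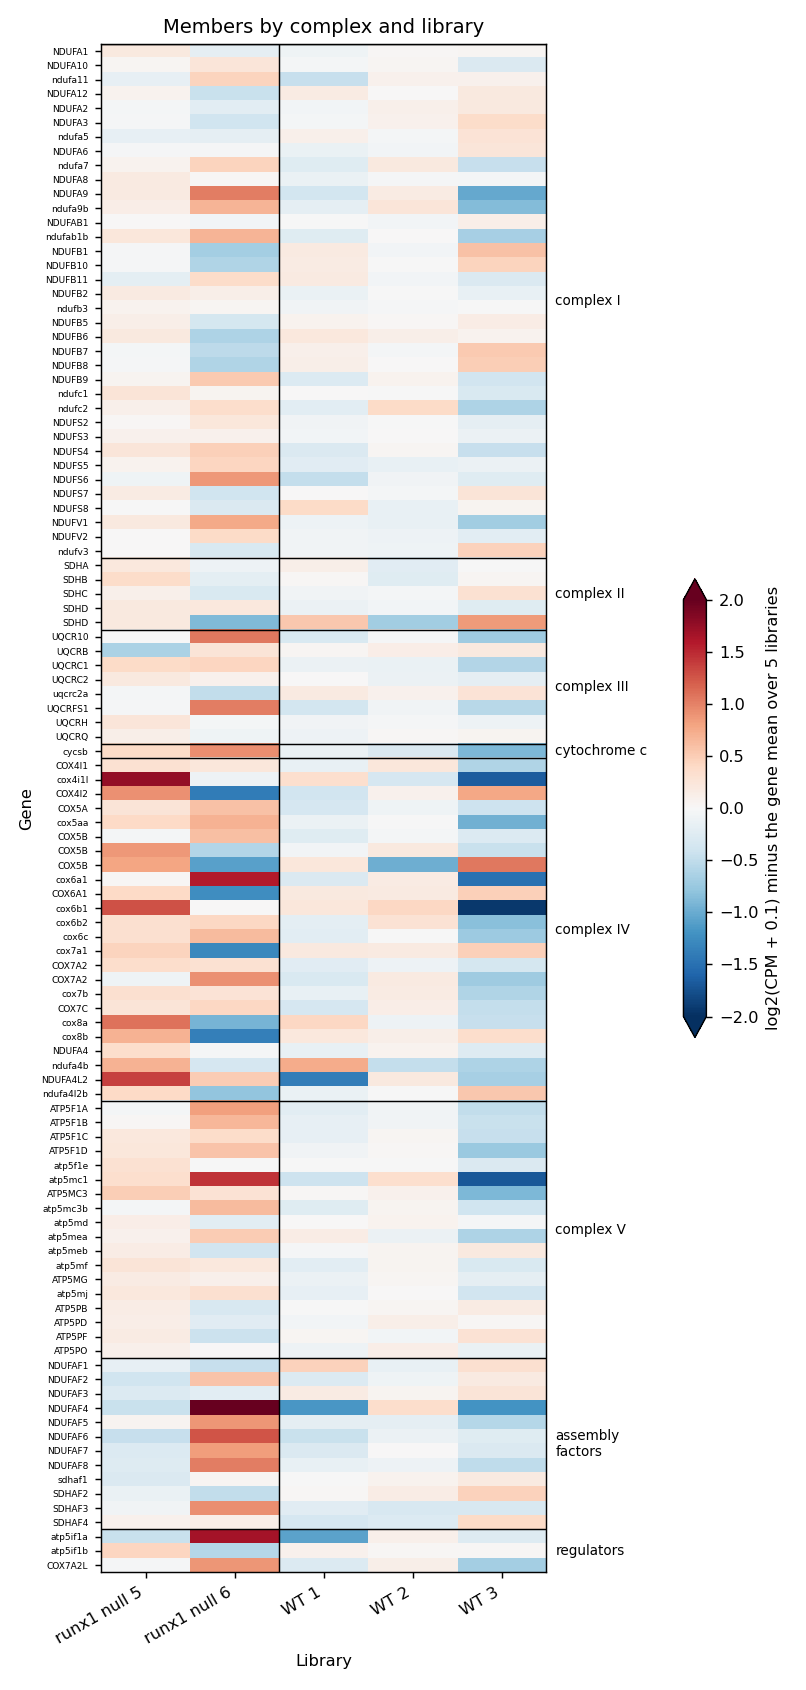
Heat map of the 107 members (rows, grouped by complex) in the 5 libraries (columns, runx1 null left of WT). Colour gives log2(CPM + 0.1) minus the mean of that gene over the libraries, with colours ending at 2 either way. Most rows are pale, the complex IV block and the assembly factors hold the strongest colours, and runx1 null 6 differs from runx1 null 5 in many rows.

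As a sum, complex I, the entry point for NADH, varied least of the 5 complexes. Its 36 genes summed to 1685 and 1677 CPM in runx1 null 5 and 6, against 1613, 1609 and 1683 CPM in WT 1, 2 and 3. The ranges overlapped, and the median log2 fold change was 0.15, with 21 genes above 0 and 15 below, but -0.0477 with upper quartile scaling. It was 0.234 without WT 1 and 0.0878 without runx1 null 5. Relative to the median of all tested genes in the same fit, complex I was at -0.09 with all libraries. On that scale it was at -0.15 without WT 1 and at 0.17 without runx1 null 5. Over tested genes with a mean of at least 10 CPM, the median log2 fold change with all libraries was 0.12. The most abundant complex I genes by CPM were NDUFB8, an accessory subunit of the membrane arm, and NDUFS8, which carries iron-sulfur clusters. NDUFB8 (ENSDARG00000010113) had 130 and 87.0 CPM in runx1 null 5 and 6, against 144, 132 and 186 CPM in WT 1, 2 and 3. Both null libraries were lower, with a log2 fold change of -0.50, a standard error of 0.42 and an edgeR adjusted p of 0.635.

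NDUFS8 (ENSDARG00000051986) had 114 and 93.3 CPM in runx1 null 5 and 6, against 149, 103 and 118 CPM in WT 1, 2 and 3, and the groups overlapped. The NDUFV and NDUFS genes include those for the subunits that carry the flavin and iron-sulfur clusters. Of these series, 2 of 3 NDUFV and 5 of 7 NDUFS genes had positive log2 fold changes. NDUFV1 (ENSDARG00000036438), the NADH-binding flavoprotein, had 90.7 and 133 CPM in runx1 null 5 and 6, against 73.5, 70.9 and 48.5 CPM in WT 1, 2 and 3. This gene was named after its values were seen. Both null libraries were higher, and edgeR put the log2 fold change at 0.80 (standard error 0.41, adjusted p 0.612).

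By symbol series the complex divided in runx1 null 6 and, with the signs reversed, in WT 3 and WT 1. It did not divide in this way in runx1 null 5. The values here are mean log2 CPM minus the mean over the libraries. The NDUFA, NDUFB, NDUFS and NDUFV series were at 0.05, 0.03, 0.07 and 0.07 in runx1 null 5. In runx1 null 6 they were at 0.15, -0.23, 0.20 and 0.28, and in WT 3 at -0.13, 0.15, -0.12 and -0.15. In WT 1 they were at -0.12, 0.05, -0.10 and -0.08, and in WT 2 at 0.05, 0.002, -0.05 and -0.11. The 10 NDUFB genes, which encode accessory subunits of the membrane arm, had a median log2 fold change of -0.24, with 4 above 0 and 6 below. The 14 NDUFA genes had a median of 0.10, the 7 NDUFS genes of 0.21 and the 3 NDUFV genes of 0.34. In summed CPM the NDUFB series stood at 488 ± 79.0 (SD, n = 2) in null kidneys and 578 ± 60.1 (SD, n = 3) in WT kidneys, and the groups overlapped. The lowest fold change of a complex I gene was that of NDUFB1 (ENSDARG00000087456), another membrane arm subunit, at -0.59. NDUFB1 had 29.5 and 18.7 CPM in runx1 null 5 and 6, against 34.1, 28.9 and 45.4 CPM in WT 1, 2 and 3.

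Complex II, which oxidises succinate in the citric acid cycle, overlapped between the genotypes. Its 5 genes summed to 338 and 265 CPM in runx1 null 5 and 6, against 295, 259 and 303 CPM in WT 1, 2 and 3. SDHA (ENSDARG00000016721), the flavoprotein that holds the succinate site, had 143 and 115 CPM in runx1 null 5 and 6, against 134, 106 and 123 CPM in WT 1, 2 and 3. SDHC (ENSDARG00000038608), a membrane anchor, had 74.5 and 56.2 CPM in runx1 null 5 and 6, against 66.3, 67.7 and 86.1 CPM in WT 1, 2 and 3. For both genes the groups overlapped and runx1 null 6 was below runx1 null 5. The median log2 fold change of the complex was 0.09, but -0.0786 with upper quartile scaling and -0.17 without runx1 null 5. One of the 2 gene IDs named SDHD, ENSDARG00000055712, was near the floor, with between 5 and 19 counts per library.

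Complex III, which passes electrons from ubiquinol to cytochrome c, was higher in the null libraries as a sum, at 630 and 781 CPM in runx1 null 5 and 6, against 531, 556 and 481 CPM in WT 1, 2 and 3. UQCRFS1 (ENSDARG00000007745), the Rieske iron-sulfur subunit, had 105 and 218 CPM in runx1 null 5 and 6, against 82.9, 102 and 72.8 CPM in WT 1, 2 and 3. The groups did not overlap, but runx1 null 5 was close to WT 2 and only runx1 null 6 stood apart. Its log2 fold change was 0.91 (edgeR; standard error 0.46, adjusted p 0.612.) UQCRC1 (ENSDARG00000052304), a core subunit, had 129 and 133 CPM in runx1 null 5 and 6, against 91.3, 90.1 and 66.0 CPM in WT 1, 2 and 3. Here both null libraries were alike, and the log2 fold change was 0.67 (edgeR; standard error 0.37, adjusted p 0.612.)

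The other core subunit has a pair of genes that went opposite ways. UQCRC2 (ENSDARG00000071691) had 101.2 and 94.4 CPM in runx1 null 5 and 6, against 89.5, 81.2 and 78.3 CPM in WT 1, 2 and 3. Its relative uqcrc2a (ENSDARG00000014794) had 70.8 and 51.9 CPM in runx1 null 5 and 6, against 82.0, 76.8 and 87.4 CPM in WT 1, 2 and 3. Neither pair of groups overlapped. The share of the pair's counts that fell on UQCRC2 was 58.8% and 64.5% in runx1 null 5 and 6, against 52.2%, 51.4% and 47.3% in WT 1, 2 and 3. UQCRB, with between 4 and 11 counts per library, did not pass the filter on low counts.

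Cytochrome c, the carrier between complexes III and IV, gave the smallest p-value of all members in edgeR, though not in DESeq2. The gene cycsb (ENSDARG00000044562) had 3447 and 5546 counts in runx1 null 5 and 6, against 2660, 1938 and 1212 counts in WT 1, 2 and 3. In CPM this was 111 and 162 in runx1 null 5 and 6, against 78.0, 69.9 and 45.8 in WT 1, 2 and 3. Both null libraries were above all WT libraries, at 136 ± 36.1 CPM (SD, n = 2) in null kidneys and 64.6 ± 16.8 CPM (SD, n = 3) in WT kidneys. The log2 fold change was 1.08 with a standard error of 0.42, an unadjusted p of 0.0448 and an adjusted p of 0.612 in edgeR's quasi-likelihood test. Its nearest neighbour in the chain, CYC1, which encodes the cytochrome c1 subunit of complex III and is not covered by the symbols above, had 112 and 143 CPM in runx1 null 5 and 6, against 77.6, 90.7 and 54.6 CPM in WT 1, 2 and 3.

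**Figure D2:**
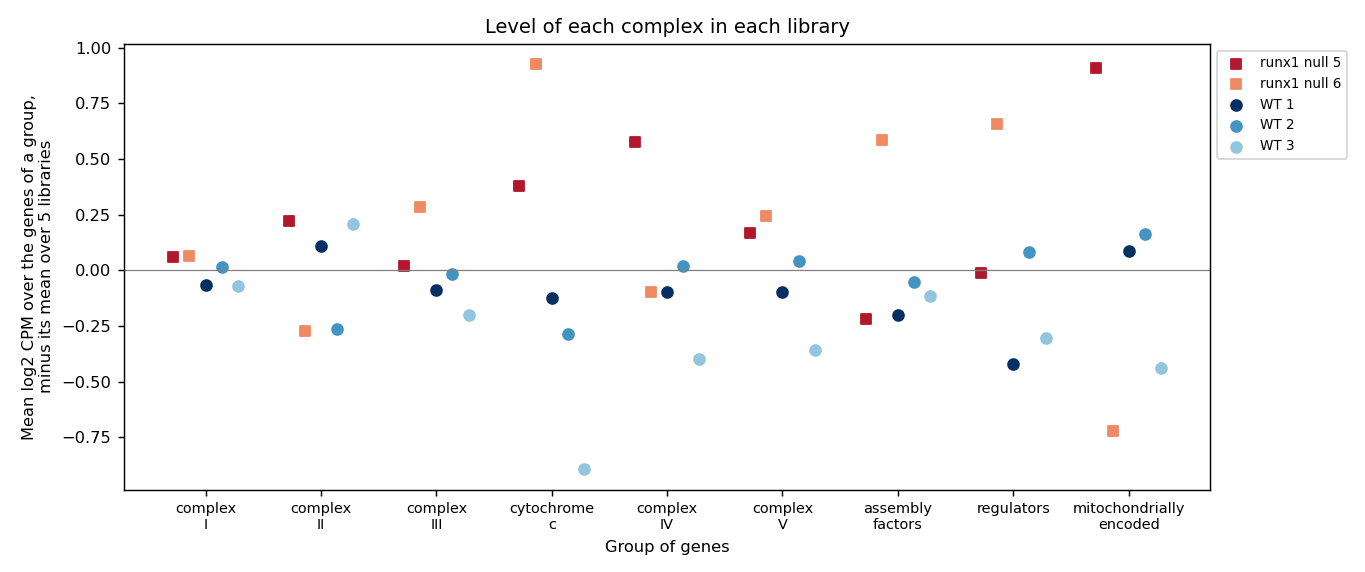
Mean log2 CPM over the genes of each group, minus its mean over the libraries, for 2 runx1 null libraries (squares) and 3 WT libraries (circles). Complex I lies within 0.1 of 0 in every library, cycsb separates the genotypes, and runx1 null 5 and 6 stand at opposite ends for the mitochondrially encoded genes.

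Complex IV, cytochrome c oxidase, was higher in the null kidneys as a sum, but as mean log2 CPM over its genes the groups overlapped. Its 24 genes summed to 1624 and 1350 CPM in runx1 null 5 and 6, against 1132, 1305 and 933 CPM in WT 1, 2 and 3. Of its 23 tested genes, 10, or 43.5%, were more than 2-fold lower in runx1 null 6 than in runx1 null 5, against 38.0% of all tested genes. Another 2, or 8.70%, were more than 2-fold higher, against 26.5% of all tested genes. The most abundant genes were NDUFA4 and COX4I1. NDUFA4 (ENSDARG00000099499) had 218 and 168 CPM in runx1 null 5 and 6, against 155, 180 and 144 CPM in WT 1, 2 and 3. COX4I1 (ENSDARG00000032970), the subunit at which ATP acts on the enzyme in mammals, had 189 and 178 CPM in runx1 null 5 and 6, against 138, 180 and 101.2 CPM in WT 1, 2 and 3. For both genes WT 2 lay within the null range.

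Of the 24 genes of complex IV, 21 belong to a family of 2 or more genes. Among these 21 were all that were more than 2-fold lower in runx1 null 6 than in runx1 null 5. The 3 genes outside such families, cox6c, cox7b and COX7C, were above all WT libraries in both null libraries. Of all tested genes, 11.1% were. The levels of different genes are not compared here, since counts are not corrected for transcript length; what is compared is a gene's share of its family's counts from library to library. Reads that fit 2 family members equally are not counted for either, so shares of near-identical copies are uncertain. Shares have exact binomial 95% intervals, which cover counting error only.

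The cox6a family reversed in 1 library. The gene ID ENSDARG00000054588, listed as COX6A1, had 91.2 and 29.2 CPM in runx1 null 5 and 6, against 79.3, 78.2 and 96.1 CPM in WT 1, 2 and 3. The gene ID ENSDARG00000022438, listed as cox6a1 in small letters, had 25.6 and 75.4 CPM in runx1 null 5 and 6, against 20.6, 28.1 and 8.84 CPM in WT 1, 2 and 3. The share of the second was 21.9% in runx1 null 5 and 72.1% in runx1 null 6 (interval 70.6% to 73.6%), against 20.6%, 26.4% and 8.42% in WT 1, 2 and 3. So 4 libraries of both genotypes had COX6A1 as the main source of counts, and runx1 null 6, the library richest in ovary markers, had cox6a1. The share in WT 2, the other library with ovary markers, was the next highest. Both libraries also had the highest sums of proliferation markers, and a link of either kind of marker to the share was not tested.

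The cox7a family shifted in the same library. The gene cox7a1 (ENSDARG00000069464), whose mammalian counterpart is the heart and muscle isoform, had 47.7 and 14.2 CPM in runx1 null 5 and 6, against 39.9, 39.4 and 48.7 CPM in WT 1, 2 and 3. Its share of the family was 43.3% in runx1 null 5 and 13.9% in runx1 null 6, against 45.9%, 40.3% and 55.4% in WT 1, 2 and 3. One of the 2 gene IDs listed as COX7A2, the form found in most mammalian tissues, had its highest level there. ENSDARG00000110700 had 26.996 and 54.2 CPM in runx1 null 5 and 6, against 23.3, 32.4 and 17.4 CPM in WT 1, 2 and 3. The other, ENSDARG00000053217, had 35.4 and 34.3 CPM in runx1 null 5 and 6, against 23.7, 25.9 and 21.8 CPM in WT 1, 2 and 3, and so was higher in both null libraries.

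In the cox8 family both genes were low in runx1 null 6. The gene cox8b (ENSDARG00000097209) had 149 and 35.7 CPM in runx1 null 5 and 6, against 107, 99.4 and 117 CPM in WT 1, 2 and 3. The gene cox8a (ENSDARG00000095273) had 30.05 and 7.38 CPM in runx1 null 5 and 6, against 18.9, 13.2 and 10.3 CPM in WT 1, 2 and 3. Their shares hardly moved, with cox8b at 83.2% and 82.9% in runx1 null 5 and 6, against 85.0%, 88.3% and 91.9% in WT 1, 2 and 3.

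In the cox6b, cox4i and cox5b families, cox6b1, all 3 cox4i genes and 1 of 3 COX5B gene IDs were highest in runx1 null 5, the library with the most tubule marker RNA, whereas cox6b2 and another COX5B ID were highest in runx1 null 6. The gene cox6b1 (ENSDARG00000045230) had 89.5 and 37.0 CPM in runx1 null 5 and 6, against 42.9, 49.2 and 9.55 CPM in WT 1, 2 and 3. Its level was lowest in WT 3, as were those of 15 of 23 tested complex IV genes and 56 of 105 tested members. Of the 20386 tested genes, 5828 were lowest there. WT 3 had the lowest sums of tubule, liver, interrenal and proliferation markers, and a link of these to the levels was not tested. Its relative cox6b2 (ENSDARG00000037860) had 157 and 166 CPM in runx1 null 5 and 6, against 109, 153 and 70.1 CPM in WT 1, 2 and 3. The share of cox6b1 was 36.4% and 18.2% in runx1 null 5 and 6, against 28.3%, 24.4% and 12.002% in WT 1, 2 and 3.

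The gene cox4i1l (ENSDARG00000012388) spread most of the complex IV genes with over 50 counts on average. It had 37.0 and 10.1 CPM in runx1 null 5 and 6, against 13.7, 8.51 and 3.36 CPM in WT 1, 2 and 3. Its log2 fold change of 1.47 had a standard error of 0.84 and an edgeR adjusted p of 0.612, and the groups overlapped. COX4I2 (ENSDARG00000022509), in mammals a form of the lung and of low oxygen, had 18.4 and 3.65 CPM in runx1 null 5 and 6, against 7.48, 10.3 and 16.7 CPM in WT 1, 2 and 3. Its share of the family was highest in WT 3, at 13.8%, and lowest in runx1 null 6, at 1.90%.

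Of the 3 gene IDs listed as COX5B, ENSDARG00000068738 had 91.0 and 33.2 CPM in runx1 null 5 and 6, against 47.9, 57.3 and 36.6 CPM in WT 1, 2 and 3. ENSDARG00000015978 had 65.3 and 102 CPM in runx1 null 5 and 6, against 57.0, 65.2 and 55.4 CPM in WT 1, 2 and 3. Its share was 41.6% and 75.3% in runx1 null 5 and 6, against 54.2%, 53.2% and 59.8% in WT 1, 2 and 3, so the null libraries lay on either side of WT. The third ID, ENSDARG00000113254, had at most 16 counts. Of the NDUFA4 relatives, ndufa4b had between 5.32 and 13.8 CPM, and the others had low counts. NDUFA4L2 had 24 and 13 counts in runx1 null 5 and 6, against 1, 8 and 3 counts in WT 1, 2 and 3. The gene ndufa4l2b had at most 4 counts.

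**Figure D3:**
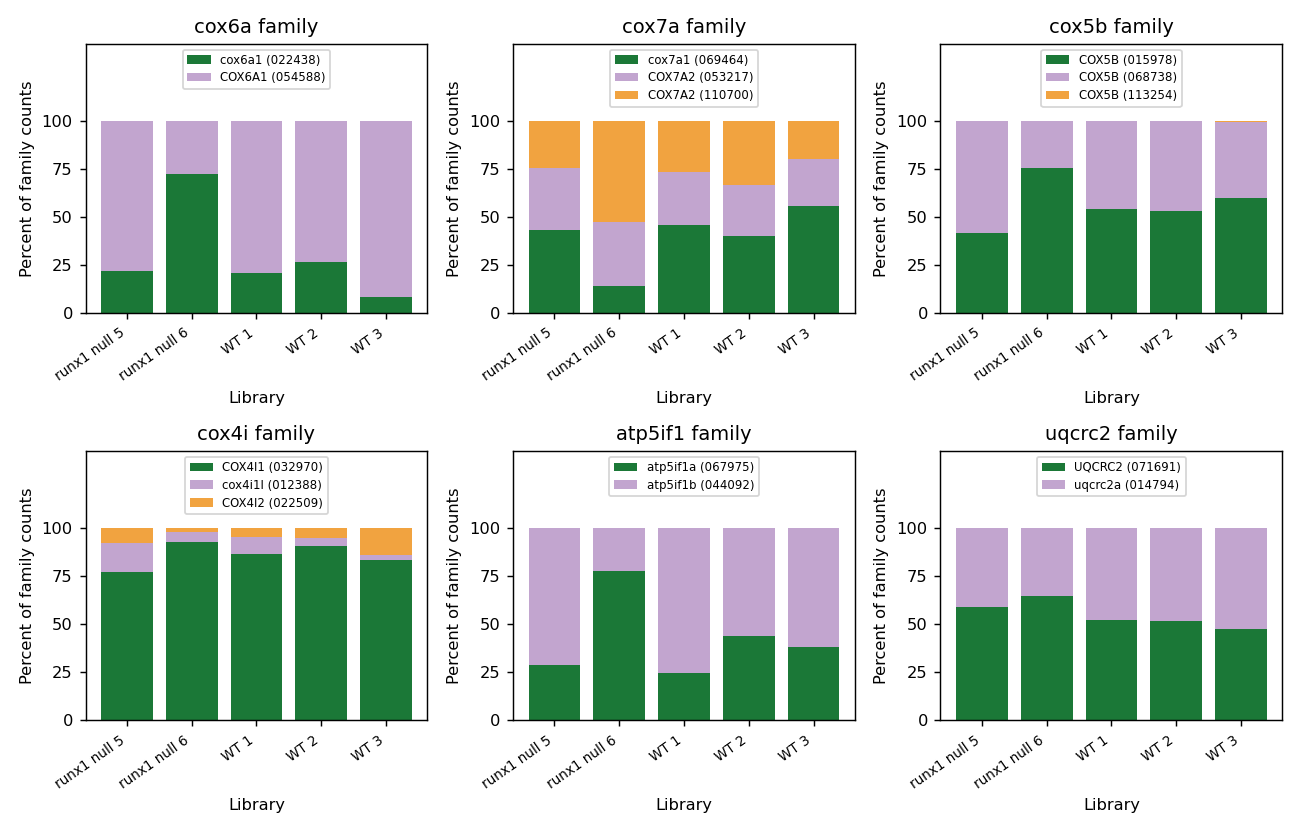
Stacked bars of each gene's percent of its family's counts, in 6 families and 5 libraries, runx1 null left of WT; gene IDs are given by their last 6 digits. In the cox6a, cox7a and atp5if1 families runx1 null 6 differs from the other 4 libraries, whereas in the uqcrc2 pair both null libraries are above all WT libraries.

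Complex V, ATP synthase, held the most abundant members and was higher in both null libraries as a sum, at 3257 and 4206 CPM in runx1 null 5 and 6, against 2779, 3083 and 2471 CPM in WT 1, 2 and 3. ATP5F1B (ENSDARG00000070083), the catalytic beta subunit of the F1 head, had 712 and 1106 CPM in runx1 null 5 and 6, against 628, 664 and 512 CPM in WT 1, 2 and 3. ATP5F1A (ENSDARG00000010149), the alpha subunit, had 553 and 1009 CPM in runx1 null 5 and 6, against 491, 546 and 406 CPM in WT 1, 2 and 3. For both genes runx1 null 5 was just above WT 2 and runx1 null 6 was well above the rest. The log2 fold changes were 0.60 and 0.70 for ATP5F1B and ATP5F1A, with standard errors of 0.45 and 0.48 and edgeR adjusted p-values of 0.62 and 0.612.

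The parts of the synthase moved alike in runx1 null 5 but not in runx1 null 6. The F1 head is taken here as the 5 genes whose symbols start with atp5f1, so it holds more than the alpha and beta subunits. As mean log2 CPM minus the mean over the libraries, the head was at 0.14 and 0.48 in runx1 null 5 and 6. The stalk was at 0.13 and -0.24 there. In WT 3 the head was at -0.49 and the stalk at 0.08. All 5 genes of the F1 head were above all WT libraries in both null libraries, as were 11.1% of all tested genes. The margin over WT 2 was slight for atp5f1e in runx1 null 6 and for ATP5F1A in runx1 null 5. The log2 fold changes of the 5 head genes had a median of 0.60. The 3 genes of the c-ring, the rotor in the membrane, had a median of 0.60. The 4 genes of the peripheral stalk, which holds the alpha and beta subunits still, had a median of -0.10 with no gene that separated the groups. In summed CPM the head had 2056 ± 623 (SD, n = 2) in null kidneys and 1348 ± 195 (SD, n = 3) in WT kidneys. The stalk had 707 ± 114 (SD, n = 2) in null kidneys and 737 ± 30.7 (SD, n = 3) in WT kidneys. The c-ring sums overlapped, at 371.6 and 636 CPM in runx1 null 5 and 6, against 278, 371.8 and 198 CPM in WT 1, 2 and 3. The 6 genes of the other membrane subunits had a median log2 fold change of 0.30. The difference between the parts was not tested.

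The c-ring gene atp5mc1 (ENSDARG00000056008) had the highest fold change of complex V. It had 134.9 and 292 CPM in runx1 null 5 and 6, against 79.6, 134 and 32.7 CPM in WT 1, 2 and 3. Within WT it varied by more than the difference between runx1 null 5 and WT 2, which differed by less than 1 CPM. Its log2 fold change was 1.38 (edgeR; standard error 0.69, adjusted p 0.612.) The share of the c-ring family's counts that fell on atp5mc1 was 36.3% and 45.9% in runx1 null 5 and 6, against 28.7%, 36.1% and 16.5% in WT 1, 2 and 3.

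The regulators included the pair of genes for the inhibitor that stops ATP synthase from running backwards. The gene atp5if1a (ENSDARG00000067975) had 37.4 and 162 CPM in runx1 null 5 and 6, against 24.1, 54.8 and 42.8 CPM in WT 1, 2 and 3. The gene atp5if1b (ENSDARG00000044092) had 92.7 and 46.1 CPM in runx1 null 5 and 6, against 73.1, 69.5 and 70.0 CPM in WT 1, 2 and 3. The share of atp5if1a was 28.8% in runx1 null 5 and 77.9% in runx1 null 6 (interval 76.9% to 78.9%), against 24.8%, 44.1% and 37.96% in WT 1, 2 and 3. As in the cox6a family, the order of the pair turned in runx1 null 6 alone and WT 2 was next. COX7A2L, which ties complexes III and IV together in mammals, had 39.7 and 74.6 CPM in runx1 null 5 and 6, against 33.3, 43.9 and 25.1 CPM in WT 1, 2 and 3.

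**Figure D4:**
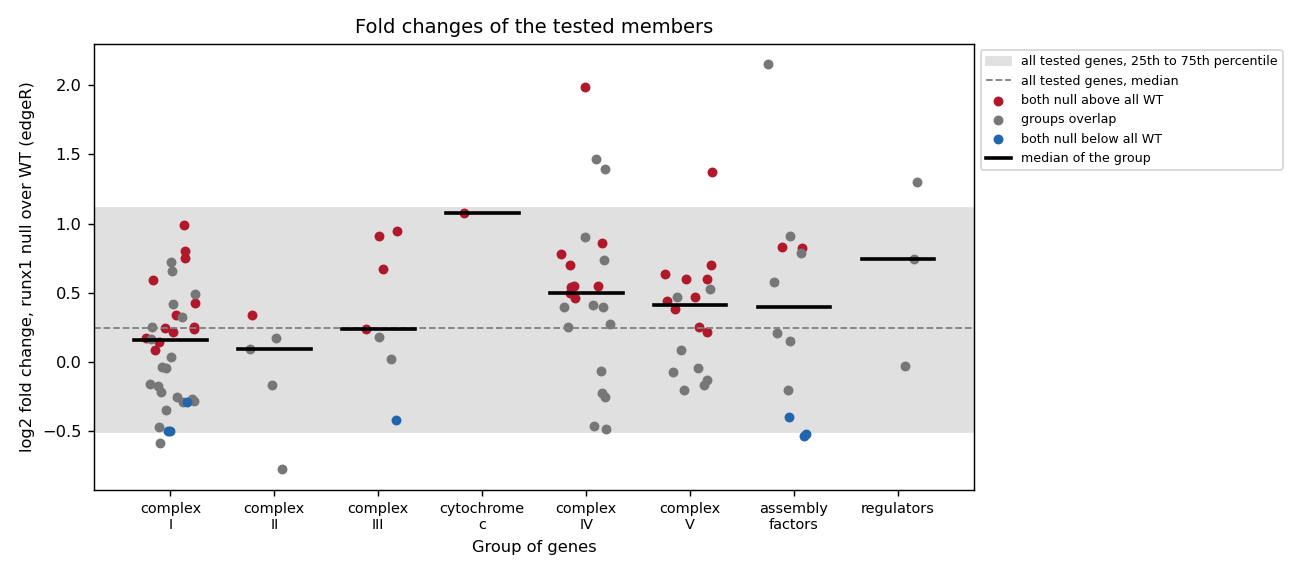
Log2 fold change, runx1 null over WT, of each tested member by group, from edgeR; the bar is the group's median, red and blue points have groups that do not overlap, and grey shading spans the middle 50% of all tested genes. Of the 105 tested members, 95 lie inside the shading, and the medians of complexes I, II and III lie at or below that of all genes, 0.24. The median over tested genes with a mean of at least 10 CPM, not drawn, was 0.12.

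Assembly factors, which build the complexes but stay out of the finished enzymes, were highest in runx1 null 6 for 7 of 12 genes, or 58.3%, against 34.9% of all tested genes and 42.1% of those with a mean of at least 10 CPM. The 8 factors of complex I summed to a mean of 111 ± 47.7 CPM (SD, n = 2) in null kidneys and 92.3 ± 2.54 CPM (SD, n = 3) in WT kidneys. NDUFAF4 (ENSDARG00000077859) had 4.63 and 35.8 CPM in runx1 null 5 and 6, against 2.79, 8.11 and 2.72 CPM in WT 1, 2 and 3. It had the highest fold change of the members with a mean of at least 50 counts, at 2.15 with a standard error of 1.01 and an edgeR adjusted p of 0.612, and it stood high in the ovary-rich libraries of both genotypes. NDUFAF1 (ENSDARG00000025549), an early factor of complex I, went the other way, with 21.9 and 17.9 CPM in runx1 null 5 and 6, against 33.996, 22.1 and 30.7 CPM in WT 1, 2 and 3. SDHAF2 (ENSDARG00000062971), which helps to attach the flavin to SDHA, had 16.2 and 12.5 CPM in runx1 null 5 and 6, against 18.0, 19.6 and 24.3 CPM in WT 1, 2 and 3. The log2 fold changes of NDUFAF1 and SDHAF2 were -0.54 and -0.52. The median over the 12 factors was 0.39, and without runx1 null 6 it was -0.11.

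The genes encoded in the mitochondrial DNA did not follow the nuclear ones in runx1 null 6. That library had the highest sum of nuclear subunit genes, 8442 CPM, and the lowest of mitochondrially encoded genes, 21666 CPM. In runx1 null 5, WT 2, WT 1 and WT 3 both sums fell in the same order. The nuclear sums were 7645, 6882, 6428 and 5916 CPM, and the mitochondrial ones 69476, 44081, 42756 and 32844 CPM. The 13 protein-coding genes took 7.12% and 2.199% of assigned counts in runx1 null 5 and 6, against 4.65%, 4.05% and 3.15% in WT 1, 2 and 3. All 13 were highest in runx1 null 5, as were 22.8% of all tested genes, and 10 of them were lowest in runx1 null 6, as were 36.4% of all tested genes. MT-CO1, the catalytic subunit of complex IV, had 24679 and 6945 CPM in runx1 null 5 and 6, against 16788, 16662 and 15177 CPM in WT 1, 2 and 3. MT-CO2, which takes the electrons from cytochrome c, had 9678 and 2819 CPM in runx1 null 5 and 6, against 5844, 6091 and 4175 CPM in WT 1, 2 and 3. None passed an adjusted p of 0.05 in edgeR, and their median log2 fold change of 0.36 was -0.74 without runx1 null 5 and 0.98 without runx1 null 6.

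The ratio of nuclear to mitochondrial counts within a library, which needs no scaling, put the null libraries on either side of WT. Nuclear subunit counts over mitochondrially encoded counts came to 0.11003 and 0.390 in runx1 null 5 and 6, against 0.150, 0.156 and 0.180 in WT 1, 2 and 3. The WT libraries were close to each other and lay between the null libraries. For complex V alone the ratio was 0.583 and 1.80 in runx1 null 5 and 6, against 0.779, 0.860 and 1.11 in WT 1, 2 and 3. For complex IV it was 0.0382 and 0.109 in runx1 null 5 and 6, against 0.0412, 0.0467 and 0.0413 in WT 1, 2 and 3. Runx1 null 5 had the lowest and runx1 null 6 the highest ratio in each of complexes I, III, IV and V.

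**Figure D5:**
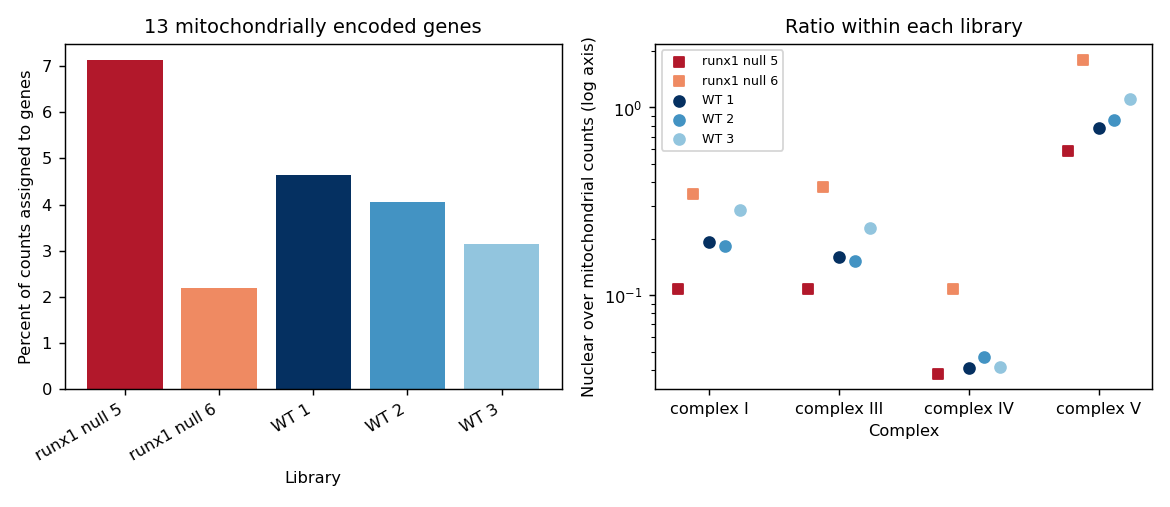
Left, percent of assigned counts on the 13 mitochondrially encoded genes in each library; right, nuclear over mitochondrial counts within each library for the 4 complexes with both kinds of gene (log axis), runx1 null as squares and WT as circles. The WT libraries lie between runx1 null 5 and runx1 null 6 in each complex.

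Each side of the split by ovary markers gave a comparison between the genotypes, read as a median of signed differences, in which rises and falls cancel. With a lone null library on each side, neither side gave a spread for null kidneys. Within a side the libraries still differed in ovary and tubule marker sums. Between runx1 null 6 and WT 2 the median difference over members was 0.12 on the log2 CPM scale, against 0.04 over all tested genes. Between runx1 null 5 and the mean of WT 1 and 3 it was 0.27, against 0.06 over all tested genes. Over tested genes with a mean of at least 10 CPM, the first comparison gave 0.11 and the second -0.18. Complex IV differed by 0.12 on the first side and 0.68 on the second, and assembly factors by 0.74 and -0.05. The mitochondrially encoded genes differed by -0.94 and 1.13. On both sides 59 of the 105 members were higher in the null library and 17 lower, against 5984 and 5299 of the 20386 tested genes. The counts of members include the 40 above and the 7 below all WT libraries, whose direction here was fixed. Those of all tested genes likewise include 2273 above and 3023 below. For cycsb the differences were 1.21 and 0.89, a direction fixed by the groups not overlapping.

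Other genes of the pathway were taken from lists of names, of which those that matched exactly 1 gene ID were used. In edgeR, 0 genes of any of these lists passed an adjusted p of 0.05. Of the 14 tested citric acid cycle genes, 13 had a positive and 1 a negative log2 fold change, with a median of 0.41, and 7 were above all WT libraries in both null libraries. Over all tested genes 58.2% had a positive log2 fold change, and the median was 0.24. In both null libraries 11.1% of all tested genes were above all WT libraries. MDH2, which makes oxaloacetate, had 203 and 445 CPM in runx1 null 5 and 6, against 174, 204 and 116 CPM in WT 1, 2 and 3. The 30 tested assembly genes outside the symbols above had a median of 0.27. Of them 3 lay above and 2 below all WT libraries, against 11.1% and 14.8% of all tested genes. Among them the copper chaperone cox17 had 33.2 and 124 CPM in runx1 null 5 and 6, against 32.8, 43.5 and 38.03 CPM in WT 1, 2 and 3. The hypoxia-induced higd1a had 458 and 61.2 CPM in runx1 null 5 and 6, against 248, 260 and 441 CPM in WT 1, 2 and 3.

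The 15 genes of mitochondrial biogenesis had a median log2 fold change of 0.40, with 9 above 0 and 6 below. NRF1, a transcription factor for nuclear respiratory genes, had 57.1 and 80.5 CPM in runx1 null 5 and 6, against 78.4, 65.3 and 73.2 CPM in WT 1, 2 and 3. GABPA, another such factor, had 55.6 and 28.5 CPM in runx1 null 5 and 6, against 83.7, 65.4 and 112 CPM in WT 1, 2 and 3. Both null libraries were below all WT libraries for GABPA, with a log2 fold change of -1.05, a standard error of 0.49 and an edgeR adjusted p of 0.612. The 6 tested carriers and pores had a median of 0.53. The ADP/ATP carrier gene SLC25A5 had 2299 and 1619 CPM in runx1 null 5 and 6, against 1927, 2586 and 1235 CPM in WT 1, 2 and 3, and the outer membrane pore VDAC2 had 366 and 305 CPM in runx1 null 5 and 6, against 353, 342 and 318 CPM in WT 1, 2 and 3.

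Of the 5 tested respiration genes outside the symbols above, 3 had positive and 2 negative log2 fold changes. After CYC1, the most abundant was atpaf1, an assembly factor of ATP synthase, at 29.95 and 28.8 CPM in runx1 null 5 and 6, against 45.0, 38.1 and 52.3 CPM in WT 1, 2 and 3. Glycolysis, the supply of pyruvate in the cytosol, could be followed in 9 of 29 listed names, so the list is not covered. Of these 9 genes, 8 had positive log2 fold changes, with a median of 0.90. GAPDH had 471 and 1904 CPM in runx1 null 5 and 6, against 406, 572 and 259 CPM in WT 1, 2 and 3. ENO3 had 229 and 661 CPM in runx1 null 5 and 6, against 138, 226 and 44.1 CPM in WT 1, 2 and 3. Both were highest in runx1 null 6 and lowest in WT 3.

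Because some complex IV isoforms mark muscle in mammals, skeletal muscle markers were read beside them. Summed over 11 genes they stood at 109 and 118 CPM in runx1 null 5 and 6, against 76.7, 44.7 and 83.3 CPM in WT 1, 2 and 3, with none at 0. The fast myosin gene myhz2 had between 0.0755 and 0.578 CPM. The groups did not overlap in the muscle sum, whereas cox7a1 was lowest in runx1 null 6. Summed over 5 cardiac and slow muscle markers, the level was 275 and 317 CPM in runx1 null 5 and 6, against 590, 0.685 and 597 CPM in WT 1, 2 and 3, and 1 marker was at 0 in each of runx1 null 5, WT 2 and WT 3.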

How the data were processed

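The authors deposited 1 table of raw read counts per Ensembl gene ID for each library. The submitters' processing notes name HISAT2 2.2.1.0, HTSeq 0.11.4, DESeq2 and the build GRCz11. The annotation release and strand setting are not given in the sources used here, so counts of overlapping genes are uncertain. The closing rows for reads given to no gene, 28.1% to 39.4% of reads, were left out; reads with several alignments were 8.58% to 10.3%. Replicates are pools of 3 kidneys, and the labels do not say whether pools share parents.

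Symbols came from a table of gene IDs; 9 members share theirs with another ID. Coordinates and sequences were not used here. The filterByExpr step of edgeR, with a minimum count of 10 and a minimum total of 15, chose the genes to test. These were scaled by TMM and compared across all genes with edgeR 4.0.16 (quasi-likelihood, robust, two-sided; Benjamini-Hochberg over 20386 genes, threshold 0.05). The heat map adds 0.1 CPM, and log2 CPM has a prior count of 2. The test was checked on simulated data with less spread between libraries and larger changes than most members had. That check does not give the power of the test in these data. Complex sums got no permutation test, since the members were chosen with results known. Alternatives used DESeq2 1.42.0, other scalings, filters and libraries left out. R 4.3.3, Python 3.11.15 and pandas 2.3.3 were used.

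The members and lists were chosen with earlier results of these data known. Of 245 listed names, 186 matched exactly 1 ID. Genes were named by rule: per complex the 2 most abundant subunits, cycsb, the 4 highest and 4 lowest fold changes with a mean of at least 50 counts, complex IV isoforms, paralogues whose order differs between libraries, and the 2 most abundant of each list. A gene that this rule names is not reported here. Subunits named only as lying above or below WT, NDUFV1, COX7A2L, cox6c, cox7b, COX7C and the markers were picked with their values known.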

Additional observations from a re-analysis of the deposited data

How the results depend on the processing

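No paired analysis was possible because null pools are numbered 5 and 6 and WT pools 1, 2 and 3. No member was called at an adjusted p of 0.05 in any of the 14 alternative fits, and DESeq2's Wald test called 81 genes in all. Upper quartile scaling moved the median log2 fold change of all tested genes to 0.07, against 0.24 with TMM, and that of all members to 0.0937, of complex I to -0.0477, of complex II to -0.0786, of complex III to 0.0583 and of complex V to 0.23. Relative to all tested genes, the members' median was 0.01 with TMM and 0.03 with upper quartile scaling. This small difference depended on the libraries and genes used. Over the members each fit tested, it was 0.10 when every library had to reach 10 counts. It was 0.23 without both WT 2 and runx1 null 6, 0.26 without runx1 null 5 and 0.29 without runx1 null 6. Leaving out WT 1, 2 or 3 gave 0.02, 0.10 or 0.004. The complex I median was 0.20 with total counts, 0.11 with no filter on low counts, 0.20 when each library had to reach 10 counts, and 0.0853 without the pair with high ovary markers (WT 2 and runx1 null 6). Without that pair the medians were -0.0946 for assembly factors and 0.33 for regulators, and 68 members (64.8%) lay above and 15 (14.3%) below all WT libraries, against 41.0% and 37.6% of all tested genes. Members below all WT libraries numbered 11 with DESeq2 size factors, 4 with upper quartile scaling and 2 with total counts, where 15.9%, 13.9% and 10.95% of all tested genes lay below.

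Leaving out 1 library at a time gave medians, over the 105 members tested with all 5 libraries, of 0.19 to 0.40 for all members, 0.0878 to 0.23 for complex I, -0.17 to 0.28 for complex II, 0.16 to 0.40 for complex III, -0.11 to 0.80 for assembly factors, 0.25 to 1.102 for regulators and -0.74 to 0.98 for mitochondrially encoded genes, and 7 to 33 members below all WT libraries, against 16.6% to 38.3% of all tested genes.

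Some fold changes turned their sign in a setting below, and not all of them were small. With all libraries COX6A1 was at -0.49 and atp5if1a at 1.30. The sign turned with upper quartile scaling for SDHA (-0.0786) and SLC25A5 (-0.0943). With total counts COX4I2 was at 0.0066, atp5if1b at 0.016, MT-CO1 at 0.013 and VDAC2 at 0.036. With at least 10 counts in every library these 4 were at 0.0017, 0.022, 0.021 and 0.039. Without the pair with high ovary markers, values were 0.55 for COX4I2, 0.068 for COX5B (ENSDARG00000113254), 0.016 for COX6A1, 0.064 for cox7a1, 0.37 for cox8b, 0.33 for atp5if1b, 0.59 for MT-CO1, 0.37 for higd1a, -0.13 for cox17 and 0.089 for VDAC2.

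Without 1 library the range was -0.43 to 0.0039 for NDUFS8, -0.11 to 0.28 for SDHA, -0.41 to 0.060 for SDHC, -1.68 to 0.71 for COX4I2, -0.54 to 0.98 for COX5B (ENSDARG00000068738), -2.41 to 0.62 for COX5B (ENSDARG00000113254), -1.56 to 0.15 for COX6A1, -1.61 to 0.20 for cox7a1, -0.96 to 1.12 for cox8a, -1.62 to 0.50 for cox8b, -0.39 to 0.90 for ndufa4b, -0.0819 to 1.97 for atp5if1a and -0.65 to 0.42 for atp5if1b. It was -1.25 to 0.64 for MT-CO1, -0.96 to 0.88 for MT-CO2, -2.40 to 0.57 for higd1a, -0.16 to 1.67 for cox17, -0.30 to 0.13 for NRF1, -0.27 to 0.33 for SLC25A5 and -0.18 to 0.15 for VDAC2. Where a value changed, the cause was not tested. When a null library is left out, the lone null library is assumed to vary like the others.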
